A study of Arabidopsis thaliana with 9 samples.

Results

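The genes described here encode 10 proteins of vernalization, Polycomb silencing, and histone deacetylation in Arabidopsis (Arabidopsis thaliana): VIN3, VRN5, VRN2, VRN1, CLF, SWN, HDA6, HDA19, HOS15, and PKL. They were chosen by locus identifier and are 10 of the 32310 loci in the data. Steady-state RNA was sequenced from wild-type Col-0 seedlings in 9 strand-specific libraries. There were 3 libraries from seedlings sampled at 22 °C (0 h). Another 3 were from seedlings held at 4 °C for 3 h, and 3 were from seedlings held at 4 °C for 12 h. A replicate was a pool of about 20 to 30 seedlings from a separate plate. The labels give the seedlings as 10 d old, whereas the protocol places the cold treatment at 12 d. All seeds, those of the 22 °C group included, had been stratified at 4 °C in the dark before growth, for 48 to 72 h by the labels and for 2 to 4 d by the study's methods. The plants grew in long days (16 h light and 8 h dark) under about 100 µE. By the study's methods, nights were cooler than the 22 °C days. The cold treatment began at ZT4 (hours after lights on) under about 20 to 25 µE. Sampling thus fell at ZT4, ZT7, and ZT16 in the 3 groups, and the effects of cold, of weaker light, and of the time of day cannot be told apart in these data. As the samples were whole seedlings, fewer cells of a type and less RNA per cell cannot be told apart either.

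Vernalization is the acquired ability to flower after a long cold period. In Arabidopsis, cold lasting weeks silences FLC, a MADS box repressor of flowering, and the silent state is kept after the return to warmth. VIN3, a plant homeodomain (PHD) finger protein known for its rise in the cold, acts with the related PHD protein VRN5 and with a form of Polycomb repressive complex 2 (PRC2) that holds the zinc finger subunit VRN2. CLF and SWN are the catalytic subunits of PRC2 that methylate lysine 27 of histone H3, VRN1 is a B3 DNA-binding protein that keeps FLC silent after the cold, and PKL is a CHD3-type chromatin remodeler that promotes the same histone mark. HDA6 and HDA19 are RPD3-type histone deacetylases, and HOS15 is a WD40 repeat protein that works with histone deacetylases in the response to cold.

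Of the 10 genes, VIN3 and HOS15 were called at 12 h by the limits on adjusted p and fold change given below. They were among 7 of the 10 with an adjusted p under 0.05 there (edgeR quasi-likelihood). For these called genes, the 250 bases before the annotated start are shown 5′ to 3′ from the TAIR10.1 assembly with RefSeq's annotation. The window of VIN3 is chr5:23249505-23249754 on the minus strand, and that of HOS15 is chr5:26856904-26857153 on the plus strand, where it overlaps 1 neighbouring locus. Capitals mark matches to the motifs searched on both strands, which are the G-box (CACGTG) and the short evening element (AATATCT) in VIN3 and the C-repeat core (CCGAC, here on the other strand) in HOS15.
VIN3: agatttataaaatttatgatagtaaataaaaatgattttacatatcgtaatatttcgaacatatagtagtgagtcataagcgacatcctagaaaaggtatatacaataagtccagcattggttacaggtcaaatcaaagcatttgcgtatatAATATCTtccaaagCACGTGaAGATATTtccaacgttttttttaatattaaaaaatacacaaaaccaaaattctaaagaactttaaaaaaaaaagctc
HOS15: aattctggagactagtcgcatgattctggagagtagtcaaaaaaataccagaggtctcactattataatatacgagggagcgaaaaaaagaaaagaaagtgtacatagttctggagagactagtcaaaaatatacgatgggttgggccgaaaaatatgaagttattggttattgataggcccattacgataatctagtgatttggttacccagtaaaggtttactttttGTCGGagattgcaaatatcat

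In VIN3 the G-box began 84 bases before the start, with short evening elements at 98 and 77 bases before it on either side. The C-repeat core of HOS15 began 21 bases before the start. Among the other 8 genes, SWN held a G-box and VRN1 a short evening element. The full evening element (AAAATATCT, which contains the short one), the CCA1-binding site (AAAAATCT), and the RY element (TGCATG) were in none of the 10 windows. Of the 27443 windows of this length upstream of protein-coding genes, 6.49% held a G-box, 10.0% a short evening element, 12.0% a C-repeat core, 2.36% a full evening element, 6.69% a CCA1-binding site, and 8.43% an RY element. The short evening element was added to the search after the VIN3 window had been seen. A match describes the letters of the window and is not evidence of binding.

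Reads were added up per locus and compared between groups by the quasi-likelihood test of edgeR, fitted to the 9 libraries together. A gene counted as called where its adjusted p was under 0.05 and its log2 fold change reached 0.5 in either direction (the fold minimum). Levels are given as normalized CPM, in which TMM factors make the libraries comparable, and as TPM, in which reads are also divided by transcript length. The libraries held 15910839 to 24291683 assigned reads, and log-scale levels of libraries correlated across genes at r = 0.98 to 0.988 within groups and 0.894 to 0.962 between groups. All 10 genes were among the 20460 genes tested, VIN3 only through its reads at 12 h. After 3 h at 4 °C, 0 of the 10 genes were called, where 10.5% of all genes tested were. At an unadjusted p under 0.05 there were 2 (VIN3 and PKL, background 28.1%), and DESeq2 also called 0. After 12 h, VIN3 and HOS15 were called higher and 0 genes were called lower, so that 2 of 10 were called against 33.1% of all genes (15.5% higher). Leaving VIN3 aside, since it could not have been tested without rising, 1 of the other 9 was called. The same 2 genes were called between 12 h and 3 h, against 25.8% of all genes (11.0% higher). Both comparisons with 22 °C share the 22 °C libraries.

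The other 8 genes moved by less than the fold minimum at both times. With no fold minimum, an adjusted p under 0.05 was reached by 1 of the 10 genes at 3 h (background 16.8%), by 7 at 12 h (background 49.5%), and by 5 for 12 h against 3 h (background 39.7%). VIN3, which was tested only through its reads at 12 h, is among the 7 and among the 5. The cold libraries did not overlap those from 22 °C for 3 of the 10 genes at 3 h (background 33.9%) and for 7, VIN3 again included, at 12 h (background 56.8%). The 9 genes other than VIN3 had log2 fold changes of −0.24 to 0.16 at 3 h and −0.49 to 0.57 at 12 h, with medians of −0.05 and 0.21, whereas the medians over all genes tested were −0.01 and −0.03.

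**Figure D1:**
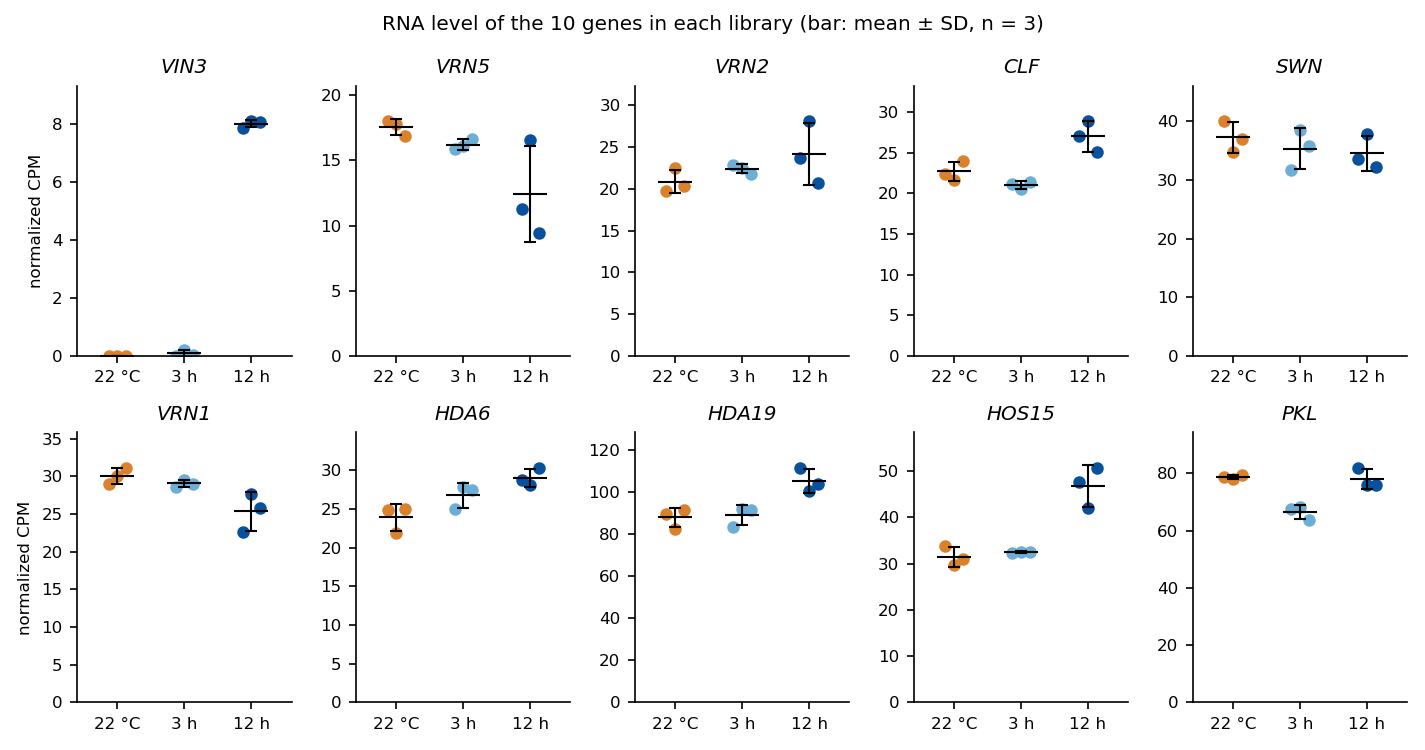
Normalized CPM of each of the 10 genes in the 3 groups, with 1 point per library and a bar for the mean ± SD of 3 libraries. VIN3 sat at or near 0 until 12 h, the 12 h libraries of HOS15 lay above the other 6, and the remaining genes changed by less.

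VIN3 (AT5G57380), the PHD protein that marks the cold phase of vernalization, had no read in any library at 22 °C, was barely detected at 3 h, and was present in every library at 12 h. The locus lies on chromosome 5 from 23246395 to 23249504 on the minus strand. It had 0 reads in each of the 3 libraries at 22 °C, then 0, 4, and 1 reads at 3 h and 146, 137, and 115 reads at 12 h. The 12 h libraries held 7.87, 8.09, and 8.05 normalized CPM, so they were close to each other and far from the other 6. Over the 22 °C group, 0 of 58224850 assigned reads was taken to allow up to 3 reads. With the TMM factors applied to the library sizes, this floor is 0.0485 normalized CPM. Against this floor over the group VIN3 was at least 164.9-fold higher at 12 h. The rise was called in the direct test (edgeR quasi-likelihood, adjusted p = 3.87e-08, higher in 3 of 3 libraries). That p belongs to the fitted difference and not to the floor, and VIN3 entered the test only through its 12 h reads.

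At 3 h, the 5 VIN3 reads among 64057902 have an exact 95% Poisson interval of 1.62 to 11.7 reads, and the rise from 0 was not called (edgeR quasi-likelihood, adjusted p = 0.149). The 398 reads at 12 h gave a level 106 times that at 3 h, with an exact binomial 95% interval of 45.1 to 328, and this difference was called (edgeR quasi-likelihood, adjusted p = 1.22e-07). These floors and intervals cover counting error only. None of the 2241 words of 31 bases in the VIN3 transcripts occurs, in the same orientation, in an annotated mRNA of another locus. The gene overlaps AT5G57370 on the opposite strand by 26 bases, and that gene had 13.3 ± 2.08, 15.3 ± 0.764, and 15.5 ± 0.814 CPM in the 22 °C, 3 h, and 12 h groups (SD, n = 3).

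VIN3 has 2 annotated transcripts, which differ in their start. AT5G57380.1 has 5 exons, the first from 23249275 to 23249504, and AT5G57380.2 has 4 exons and begins at 23248865, inside the first intron of the other form. At 12 h, Salmon's estimated reads were 66.2, 53.7, and 76.6 for the longer form and 79.8, 83.3, and 38.4 for the shorter one, so that neither form dominated in all libraries. All 5 reads at 3 h were assigned to the shorter form.

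For the 5 genes whose log2 normalized CPM followed that of VIN3 most closely over the 9 libraries, Pearson's r was 0.997. This is a description over libraries that share group, depth, and time of day, and it chiefly selects genes that stepped up between 3 and 12 h, since 955 of the 19204 genes compared had an r of at least 0.95. CYCT1;3, a cyclin T gene, had 13.8 ± 0.671, 18.2 ± 5.10, and 74.5 ± 2.1 CPM in the 22 °C, 3 h, and 12 h groups (SD, n = 3). DRH1, a DEAD box RNA helicase gene, had 177 ± 2.31, 190.0 ± 9.07, and 348 ± 5.80 CPM. The annotated gene TRANS11 went from 6.34 ± 0.406 and 8.91 ± 1.86 to 43.0 ± 1.39 CPM. AT1G17665 had 0.413 ± 0.133 CPM at 22 °C and 28.7 ± 2.66 at 12 h, and AT1G10090 had 23.5 ± 1.67 and 260.0 ± 5.93. Of these 5, AT1G17665 was the nearest to VIN3 in having almost no RNA before the 12 h sample.

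VRN5 (AT3G24440, chromosome 3, 8875784 to 8878481), the PHD partner of VIN3, was lower at 12 h by an amount just short of a call. Its normalized CPM were 18, 17.8, and 16.8 at 22 °C, 15.9, 16.1, and 16.7 at 3 h, and 11.3, 16.5, and 9.45 at 12 h. Libraries 1 and 3 at 12 h lay well below all others, whereas library 2 was just under the lowest 22 °C library and within the 3 h range. The log2 fold change at 12 h was −0.49 (SE 0.15, 95% interval −0.82 to −0.17, edgeR quasi-likelihood, adjusted p = 0.014), under the fold minimum of 0.5, and at 3 h it was −0.12 (SE 0.15, adjusted p = 0.678). Without 12 h replicate 2 the gene was called at −0.75 against 22 °C (and at −0.64 against 3 h), and without 22 °C replicate 3 at −0.52. Without 12 h replicate 1 or 3, in turn, it was −0.41 and −0.34 against 22 °C and the adjusted p was no longer under 0.05 (0.0728 and 0.0661, edgeR quasi-likelihood).

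None of the 3 PRC2 subunits was called. VRN2 (AT4G16845, chromosome 4, 9476069 to 9479878) had 19.8, 22.5, and 20.4 CPM at 22 °C, 22.9, 22.5, and 21.8 CPM at 3 h, and 23.7, 28.1, and 20.7 CPM at 12 h. These groups overlapped at both times, and the log2 fold change at 12 h was 0.21 with a 95% interval of −0.02 to 0.44 (edgeR quasi-likelihood, adjusted p = 0.121). Its size moved with single libraries and was 0.09 without 12 h replicate 2 and 0.31 (adjusted p = 0.0314) without 12 h replicate 3, and the ratio of the group means in TPM, which carries no scaling factor, was 0.01 on the log2 scale. CLF (AT2G23380, chromosome 2, 9955092 to 9960386), the main H3K27 methyltransferase of the vegetative plant, had 22.4, 21.7, and 24.0 CPM at 22 °C, 21.2, 20.5, and 21.5 CPM at 3 h, and 27.1, 28.9, and 25.1 CPM at 12 h. All 3 libraries at 12 h lay above the other 6 and all 3 at 3 h lay below those at 22 °C. The log2 fold change of CLF was −0.11 at 3 h (95% interval −0.30 to 0.08), 0.25 at 12 h (0.06 to 0.44, adjusted p = 0.0294), and 0.36 for 12 h against 3 h (SE 0.09, edgeR quasi-likelihood, adjusted p = 0.0047), below the fold minimum each time. At 12 h against 22 °C the adjusted p of CLF was above 0.05 without 22 °C replicates 1 or 2 or 12 h replicate 2 (0.0658, 0.106, and 0.114, at 0.20 to 0.25) and under upper quartile scaling (0.286, at 0.12), and in a fit with a replicate block it was 0.0535. CLF overlaps AT2G23370 by 58 bases and AT2G23390 by 22 bases, both on the opposite strand, which had 10.3 ± 0.825 and 57.7 ± 0.706 CPM at 22 °C and 9.10 ± 0.967 and 30.5 ± 0.308 CPM at 12 h (SD, n = 3).

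SWN (AT4G02020, chromosome 4, 886580 to 891987), which shares its catalytic role with CLF, had 40.0, 34.8, and 37.0 CPM at 22 °C, 31.7, 38.5, and 35.8 CPM at 3 h, and 33.6, 37.7, and 32.1 CPM at 12 h. The 3 groups overlapped, and the 95% intervals of the log2 fold change were −0.28 to 0.12 at 3 h and −0.31 to 0.09 at 12 h. VRN1 (AT3G18990, chromosome 3, 6548127 to 6552055), the B3 protein, had 29.0, 30.1, and 31.1 CPM at 22 °C, 28.6, 29.5, and 29.0 CPM at 3 h, and 22.6, 27.7, and 25.8 CPM at 12 h. Every 12 h library of VRN1 was under the lowest of the other 6, by a log2 fold change of −0.25 against 22 °C (SE 0.09, edgeR quasi-likelihood, adjusted p = 0.0324), which is also below the fold minimum. The value was −0.15 without 12 h replicate 1 (adjusted p = 0.201), and the adjusted p was also above 0.05 without 22 °C replicates 2 or 3 or 12 h replicate 3 (0.0533 to 0.0972) and with DESeq2 (0.0626). Upper quartile scaling gave −0.38 and the ratio of mean TPM −0.47, or −0.22 relative to the median of all genes in TPM (−0.25). For VRN1, 6.65% of the 31-base words occur in annotated mRNAs of other loci, whereas the share was 0 for the other 9 genes. Only mRNAs in their own orientation were searched, so overlaps on the opposite strand do not count here.

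Both histone deacetylase genes had an adjusted p under 0.05 at 12 h, with differences smaller than the fold minimum. HDA6 (AT5G63110, chromosome 5, 25315506 to 25318347) had 24.8, 21.9, and 24.95 CPM at 22 °C, 24.9, 27.8, and 27.5 CPM at 3 h, and 28.8, 28.1, and 30.3 CPM at 12 h. Its 12 h libraries lay above the other 6, with a log2 fold change of 0.28 against 22 °C (SE 0.09, edgeR quasi-likelihood, adjusted p = 0.0166). It shares 28 bases with AT5G63100 on the same strand, a gene with 5.98 ± 1.06 CPM at 22 °C and 3.42 ± 0.984 CPM at 12 h (SD, n = 3). HDA19 (AT4G38130, chromosome 4, 17896278 to 17899509) had 89.4, 82.5, and 91.5 CPM at 22 °C, 83.3, 91.6, and 91.4 CPM at 3 h, and 111, 100.4, and 104 CPM at 12 h. Again the 12 h group did not overlap the others, and the log2 fold change was 0.26 against 22 °C (SE 0.08, edgeR quasi-likelihood, adjusted p = 0.00902). At 3 h neither gene passed the test, with 95% intervals of −0.03 to 0.35 for HDA6 and −0.14 to 0.18 for HDA19. Under upper quartile scaling both lost the adjusted p under 0.05 at 12 h (0.15 for HDA6 and 0.13 for HDA19 on the log2 scale, adjusted p = 0.181 and 0.159), as HDA6 did without 22 °C replicate 2 or 12 h replicate 3 (0.0863 and 0.056) and HDA19 without 22 °C replicate 2 (0.0539). The ratio of mean TPM at 12 h gave 0.10 for HDA6, 0.04 for HDA19, and 0.03 for CLF on the log2 scale, where the median of all genes was −0.25, so that relative to this median they stood at 0.35, 0.29, and 0.28.

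HOS15 (AT5G67320, chromosome 5, 26857154 to 26861119), the WD40 partner of histone deacetylases, rose at 12 h and was not called at 3 h. Its normalized CPM were 33.8, 29.6, and 30.9 at 22 °C, 32.3, 32.5, and 32.6 at 3 h, and 47.6, 41.9, and 50.7 at 12 h. The lowest 12 h library was above all 6 others, and the 3 h libraries lay within the 22 °C range. The log2 fold change was 0.57 at 12 h against 22 °C (SE 0.09, 95% interval 0.39 to 0.76, edgeR quasi-likelihood, adjusted p = 5.24e-05) and 0.05 at 3 h (interval −0.14 to 0.23). Between 12 h and 3 h it was 0.53 (SE 0.09, adjusted p = 0.000162), and without 12 h replicate 3 it was 0.47 and no longer called for its size. Upper quartile scaling gave 0.44 at 12 h, under the fold minimum, while it moved the median of all genes from −0.03 to −0.16. Relative to the median of all genes, HOS15 was higher by 0.60 under both scalings and by 0.59 in the ratio of mean TPM (0.34 before the median of −0.25 was taken off). Another scaling shifts all genes by nearly the same amount, and taking off the median removes that shift. The equal values under both scalings were thus built in and are no support for the call.

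PKL (AT2G25170, chromosome 2, 10713807 to 10724106), the chromatin remodeler, was the only one of the 10 genes with an adjusted p under 0.05 at 3 h, where it was lower. Its normalized CPM were 78.7, 78.1, and 79.4 at 22 °C, 67.5, 68.4, and 63.7 at 3 h, and 82.0, 75.9, and 75.9 at 12 h. All 3 h libraries lay below the other 6, and the 12 h libraries spanned the 22 °C range. The log2 fold change was −0.24 at 3 h (SE 0.07, edgeR quasi-likelihood, adjusted p = 0.0219), −0.01 at 12 h (95% interval −0.16 to 0.13), and 0.23 for 12 h against 3 h (SE 0.07, adjusted p = 0.0149), all below the fold minimum. At 3 h the adjusted p was above 0.05 without any 1 of the 22 °C libraries (0.055, 0.0576, and 0.0715 without replicates 1, 2, and 3) and without 3 h replicate 3 (0.104), while the log2 fold change stayed between −0.26 and −0.21. For 12 h against 3 h it was above 0.05 without 3 h replicate 3 (0.0717), without 12 h replicate 1 (0.06), and under upper quartile scaling (0.0935, at 0.15). In the ratio of mean TPM, where the median of all genes was −0.25, PKL stood at −0.25 at 12 h. Of the loci that overlap PKL, a long noncoding RNA had 0, 0, and 2 reads over the libraries of the 3 groups, and the other 2 had no read.

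**Figure D2:**
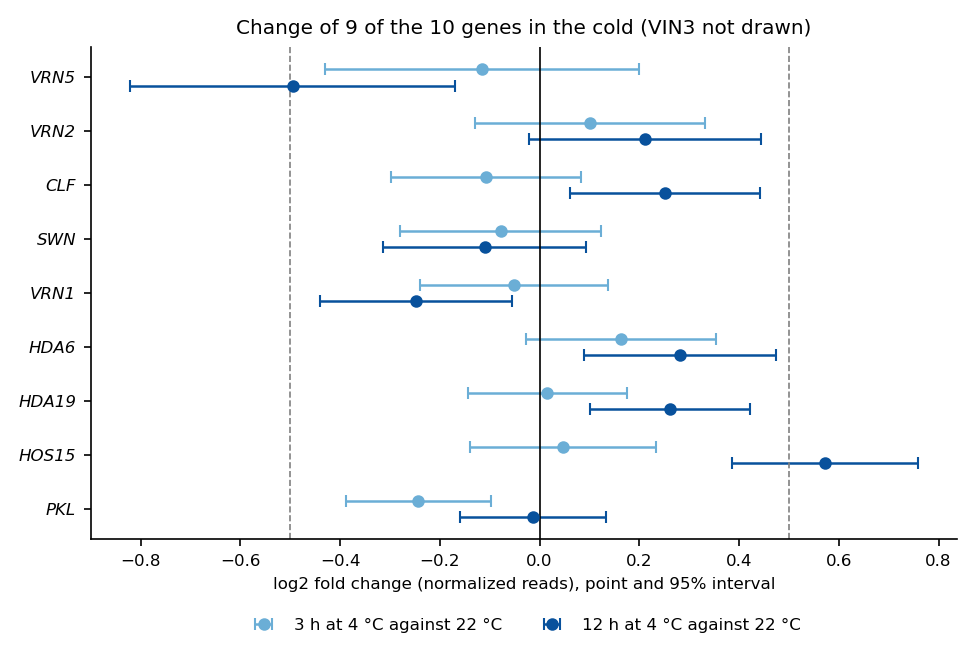
Log2 fold change of 9 genes after 3 h (light) and 12 h (dark) at 4 °C against 22 °C, with bars for the 95% interval and dashed lines at the fold minimum of 0.5 in each direction. HOS15 at 12 h is the only point past a dashed line, and VRN5 at 12 h (−0.49) lies at one. VIN3 is not drawn, because it had no read at 22 °C.

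Per transcript length, HDA19 was the most abundant of the 10 RNAs in every group, and VIN3 stayed the least abundant even at 12 h. Mean TPM at 22 °C was 51.8 ± 3.28 for HDA19 (SD, n = 3), 25.9 ± 1.49 for VRN1, 24.8 ± 0.477 for PKL, 20.9 ± 1.25 for VRN2, and 18.9 ± 1.34 for SWN. Below these came HDA6 with 17.1 ± 1.35 TPM, HOS15 with 16.1 ± 0.947 TPM, VRN5 with 12.9 ± 0.468 TPM, CLF with 9.80 ± 0.462 TPM, and VIN3, listed at 0. The library ranges of VRN1 and PKL overlapped, as did those of each neighbouring pair from VRN2 to HOS15, so these neighbours in the order did not differ beyond their spread.

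At 12 h, HOS15 had moved from the seventh to the fourth place and VRN1 from the second to the fifth, though places are loosely set. Mean TPM was then 53.3 ± 2.49 for HDA19, 21.0 ± 3.76 for VRN2, 20.9 ± 1.04 for PKL, 20.4 ± 0.814 for HOS15, 18.7 ± 2.27 for VRN1, and 18.3 ± 1.01 for HDA6, and each neighbouring pair from VRN2 to HDA6 overlapped. SWN had 15.2 ± 1.75 TPM, CLF 10.0 ± 0.882 TPM, VRN5 7.81 ± 2.73 TPM, and VIN3 4.25 ± 0.309 TPM. VRN5 and CLF overlapped, whereas VIN3 lay below every library of VRN5.

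**Figure D3:**
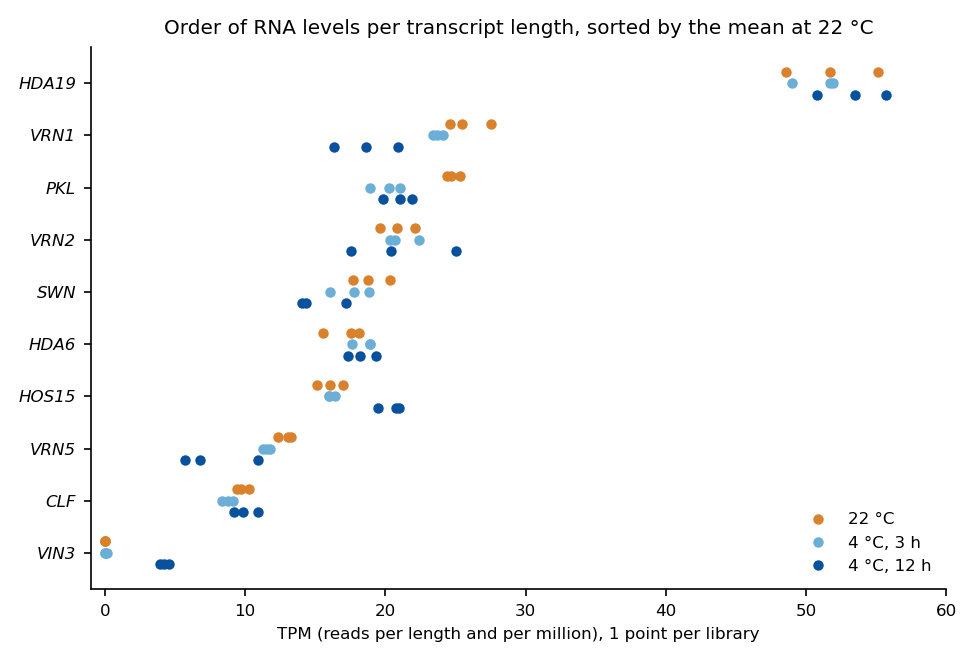
TPM of the 10 genes in each library, sorted by the mean at 22 °C, with orange for 22 °C, light blue for 3 h, and dark blue for 12 h at 4 °C. HDA19 stands alone near 50 TPM, HOS15 at 12 h (19.5 to 21.0 TPM) lies above its other libraries, and VIN3 reaches 3.95 to 4.57 TPM at 12 h.

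A sum over a locus can hide a switch between its transcripts. Usage could be tested with edgeR's diffSpliceDGE for 6 of the genes (VIN3, VRN5, VRN2, CLF, SWN, and HDA19), and 0 of 6 were called at 3 h, at 12 h, or between the 2 times, where 0.742%, 2.42%, and 0.994% of the 6739 loci tested were. VIN3 had no read at 22 °C and so no transcript shares there. It could not have been called against 22 °C, whatever its transcripts did. At an unadjusted p under 0.05 there were 2 of the 6 at 12 h (SWN and HDA19, background 12.2%), 1 between 12 h and 3 h (SWN, background 8.49%), and 0 at 3 h (background 6.91%). The share of the shorter-coding HDA19 form, AT4G38130.2, was 0.43%, 0%, and 0.41% at 22 °C, 1.80%, 1.28%, and 1.35% at 3 h, and 2.37%, 6.18%, and 4.06% at 12 h. These groups did not overlap, but the form stayed minor and the test missed the threshold (adjusted p = 0.237 at 12 h, Simes p over transcripts from diffSpliceDGE).

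SWN form AT4G02020.4 had 58.5, 49.99, and 56.9 estimated reads at 3 h, 0 in every library at 12 h, and 56.5, 0, and 0 at 22 °C. It was thus near 7% of SWN in the 3 h libraries and listed at 0 at 12 h, with an adjusted p of 0.188 for 12 h against 3 h (diffSpliceDGE). For VRN5, the share of AT3G24440.2 was 77.1%, 25.5%, and 32.7% at 22 °C, 23.4%, 48.3%, and 44.3% at 3 h, and 4.58%, 49.4%, and 8.87% at 12 h. The 2 libraries at 12 h with low VRN5 were those in which this form nearly vanished, whereas the reads of AT3G24440.1 there (199 and 123) were within its range of 81.0 to 305 at 22 °C. These estimates are not scaled for depth. The range at 22 °C is also too wide to show which form accounts for the lower VRN5. With this much spread between replicates the shift at 12 h, 24.1 percentage points in the mean share, was not called (adjusted p = 1.0). VRN1, HDA6, PKL, and HOS15 had 1 form that took nearly all reads or only 1 annotated form.

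**Figure D4:**
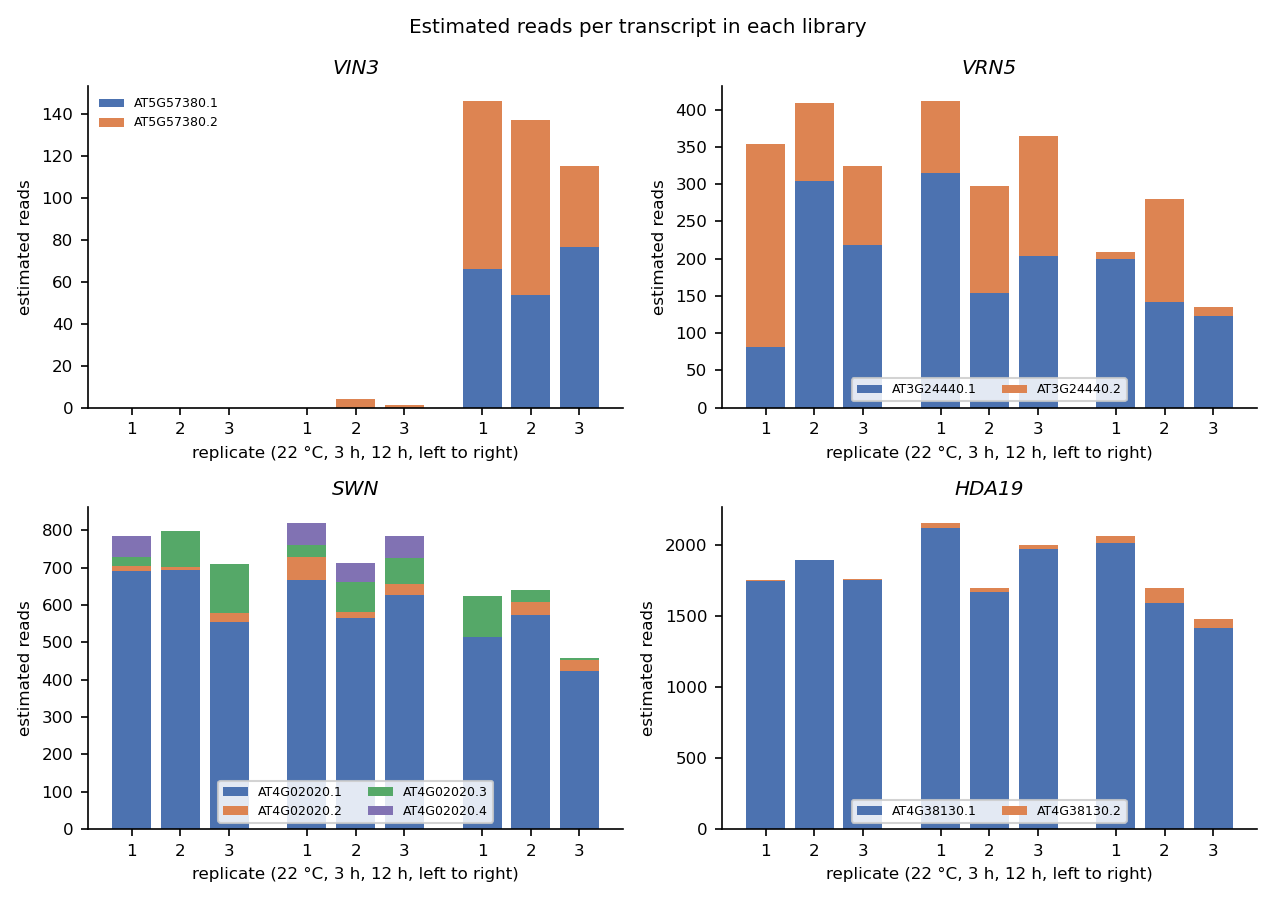
Salmon's estimated reads per annotated transcript of VIN3, VRN5, SWN, and HDA19 in each library, stacked by form, with replicates 1 to 3 in the 22 °C, 3 h, and 12 h groups from left to right. Both VIN3 forms appear at 12 h, and the second VRN5 form is nearly gone in 12 h replicates 1 and 3 but not in replicate 2.

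The 10 genes were set beside the other genes of their pathways, in 9 lists that hold 72 loci, of which 66 were tested. At 3 h, 0 of the 66 were called (background 10.5%), and at 12 h 8 were higher and 4 lower (background 33.1%), with a median log2 fold change of 0.04 beside −0.03 over all genes. Under upper quartile scaling the split turned to 4 higher and 6 lower. Without the 10 genes, 6 of 56 were higher and 4 lower at 12 h. The medians of the 9 lists at 12 h lay between −0.22 and 0.16. In the VIN3 family, VIN3 was the only gene called of 3 tested, and the relatives VEL2 and VEL3 had 12 and 2 reads over all 9 libraries and were not tested. In PRC2, 0 of 6 were called, and MEA and FIS2, known for their role in the seed, were not tested for want of reads.

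JMJ30, a JmjC histone demethylase linked to the circadian clock, had the largest change after VIN3 among these genes. It had 1.27 ± 0.134 CPM at 22 °C, 1.18 ± 0.433 CPM at 3 h, and 16.5 ± 2.15 CPM at 12 h (SD, n = 3), and rose by a log2 fold change of 3.69 at 12 h (SE 0.22, edgeR quasi-likelihood, adjusted p = 1.24e-09). The other 8 tested genes of the H3K27 demethylase and trithorax list were not called. Among 5 genes of PRC1 and its partners, RING1A, a ubiquitin ligase of histone H2A, rose by 0.74 (SE 0.17, adjusted p = 0.00188) and EMF1 by 0.59 (SE 0.09, adjusted p = 5.22e-05, by edgeR quasi-likelihood). Under upper quartile scaling EMF1 fell under the fold minimum, at 0.45. VAL3, a relative of the B3 repressors that recruit Polycomb to FLC, rose by 0.71 (adjusted p = 0.04, edgeR quasi-likelihood), a call that was lost in 9 of 17 alternatives. Among these were 6 with a library left out (22 °C replicates 1 and 2, 3 h replicate 2, and each 12 h library), at 0.57 to 0.77.

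Of 15 histone deacetylases tested, 1 was called higher and 2 lower at 12 h (background 33.1%). SRT2, a sirtuin, had 18.1 ± 1.06, 13.3 ± 1.77, and 9.19 ± 0.778 CPM in the same order of groups and fell by 0.98 on the log2 scale at 12 h (SE 0.13, edgeR quasi-likelihood, adjusted p = 8.31e-06). HDA8 fell by 0.52 (adjusted p = 0.000609), and by 0.46, no longer called, without 12 h replicate 1. HDA2 rose by 0.55 (adjusted p = 0.0294), and lost its call without 22 °C replicates 1 or 3 or 12 h replicates 1 or 3, at 0.43 to 0.55. Its call was also lost under upper quartile scaling, at 0.41. Of 14 tested partners of histone deacetylases, HOS15 was the only one higher, and the LSD1-like histone demethylases LDL1 and LDL2 were lower, with log2 fold changes of −0.62 and −0.56 (adjusted p = 0.0193 and 0.0448, edgeR quasi-likelihood). The LDL1 call was lost without 22 °C replicate 1 and without 12 h replicate 2, at −0.42 both times, and the LDL2 call was lost in 14 of 17 alternatives, among them each library left out except 12 h replicate 2, at −0.62 to −0.47. Of the CHD remodelers, 0 of 3 were called.

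**Figure D5:**
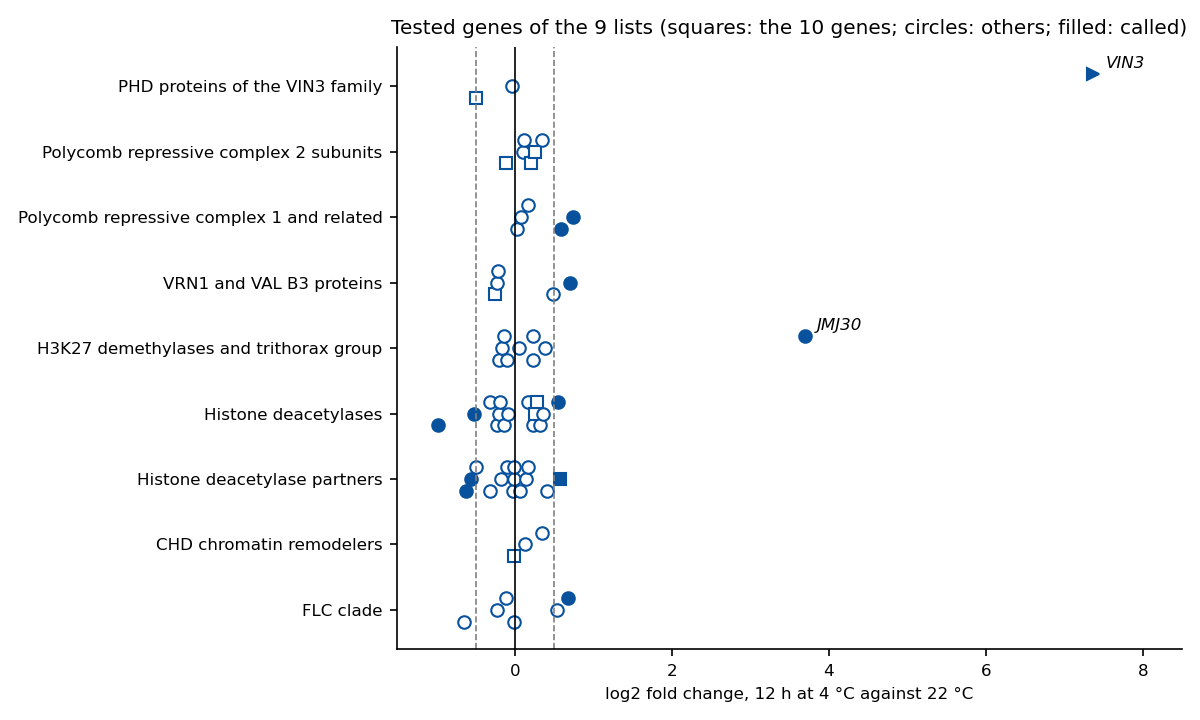
Log2 fold change at 12 h against 22 °C of the 66 tested genes of 9 lists, with squares for the 10 genes described here, circles for the others, filled symbols for called genes, and dashed lines at the fold minimum of 0.5. VIN3 is drawn as a triangle at its lower bound of 7.37 on the log2 scale, JMJ30 stands at 3.69, and most other genes lie between the dashed lines.

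FLC itself, the gene that VIN3 and PRC2 silence in a long cold period, did not pass the test. It had 8.55 ± 1.90 CPM at 22 °C, 8.36 ± 1.17 CPM at 3 h, and 8.51 ± 0.956 CPM at 12 h (SD, n = 3). The 95% interval of its log2 fold change was −0.40 to 0.34 at 3 h and −0.39 to 0.37 at 12 h (edgeR quasi-likelihood, adjusted p = 0.963 at 12 h). Of its relatives, MAF3 rose by 0.68 at 12 h (SE 0.10, edgeR quasi-likelihood, adjusted p = 5.38e-05), from 11.3 ± 0.100 to 18.1 ± 0.841 CPM. MAF1, MAF2, MAF4, and MAF5 were not called at 12 h, with log2 fold changes of −0.12, −0.23, −0.65, and 0.54, those of MAF4 and MAF5 resting on mean levels of 0.565 to 2.58 CPM.

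Marker genes of other tissues were checked because the seedlings were sampled whole. The summed TPM of 5 leaf genes was 38130 to 40230 at 22 °C, 33420 to 38580 at 3 h, and 30080 to 34700 at 12 h, and that of 5 root genes was 120.7 to 141 at 22 °C, 118 to 144 at 3 h, and 84.6 to 112 at 12 h, with 0 of the leaf genes and 2 of the root genes called at 12 h. The sum of 6 genes of dividing cells was 77.2 to 99.2, 77.7 to 88.4, and 72.6 to 79.8 TPM in the same groups. Flower and seed markers, 5 each, summed to at most 1.81 and 1.30 TPM, with AP1 and LEC1 at 0 in all libraries. The leaf and root sums at 12 h were below all those at 22 °C, on a scale where the median of all genes was also lower at 12 h (−0.25 on the log2 scale), and their part in the changes of VIN3, HOS15, and the other genes was not tested.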

How the data were processed

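Strand-specific RNA-seq libraries from wild-type Col-0 seedlings, 3 for each of 3 groups, were analysed. Before deposit the authors cleared the reads of rRNA (SortMeRNA) and of adapters (Trimmomatic), ran FastQC, and quantified ARAPORT11 transcripts with Salmon. Salmon's options, strand setting included, are not given in the sources used here. The estimated counts deposited by the authors are Salmon's expected reads per transcript, neither scaled nor pooled. The TPM values deposited by the authors divide these by effective transcript length and scale each library to the same total.

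Estimated counts were summed per locus and rounded, passed through filterByExpr, given TMM factors (0.889 to 0.946 in the 12 h libraries and 1.01 to 1.07 in the others), and fitted with edgeR 4.0.16 (limma 3.58.1, R 4.3.3), with Benjamini-Hochberg adjustment over 20460 genes. An SE is the size of the log2 fold change divided by the square root of the F statistic, and intervals are at 95%. Depth of 15910839 to 24291683 reads sets the precision of low genes such as VIN3. Transcript usage was tested with diffSpliceDGE (a transcript's mean share had to move by 10 percentage points or more, with an adjusted p under 0.05). The gene test and the transcript usage test were each tried on simulated counts. All 22 member transcripts have the same length in the files as in RefSeq's TAIR10.1 models, from which coordinates and sequences were read.

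The genes, the 9 lists, and the tests were chosen with earlier results of these data known. Named are all 10 genes, up to 3 called genes of each list per time with the smallest p, every tested gene of the FLC clade, and the 5 genes with the highest r to VIN3. BMI1B, BMI1C, JMJ13, and PWR were left out because the reference does not give their identifiers these symbols. Alternatives were DESeq2 1.42.0, other scaling factors, other filters and thresholds, TPM-derived counts, the 2 compared groups alone, fits that leave out 1 library, and a replicate block. The ratio of mean TPM was added after the data were seen. Same-numbered libraries are not said to belong together.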

Additional observations from a re-analysis of the deposited data

Results flagged for a closer look

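Of the 10 genes and the genes named from the pathway lists, 5 had a cold response at 12 h that differed from that at 3 h, with an adjusted p under 0.05 and a log2 difference of 0.5 or more in the direct test of 12 h against 3 h (edgeR's quasi-likelihood test with Benjamini-Hochberg adjustment). CLF, PKL, HDA19, EMF1, HDA8, and MAF3 also had an adjusted p under 0.05 there, with smaller differences. List genes outside the 10 and the FLC clade were named because they were called at 12 h. For them a difference from 3 h is partly built in, since the same 12 h libraries are used. Among all 66 list genes tested, these 5 were the only ones called between 12 h and 3 h (4 higher and 1 lower). The share over all genes tested was 25.8%. VIN3 was higher at 12 h than at 3 h by a fitted log2 difference of 6.60 (adjusted p = 1.22e-07, higher in 3 of 3 libraries), JMJ30 by 3.78 (adjusted p = 1.83e-09), VAL3 by 0.78 (adjusted p = 0.0313), and HOS15 by 0.53 (adjusted p = 0.000162), and SRT2 was lower by −0.53 (adjusted p = 0.00338). The fitted value of VIN3 rests on 5 reads at 3 h, 4 of them in replicate 2, and ranged from 5.94 to 8.20 with 1 library left out. The VAL3 call was lost without any 1 of 4 libraries (3 h replicates 1 and 2, 12 h replicates 1 and 3), at 0.69 to 0.79, and that of HOS15 without 12 h replicate 3, at 0.47. The SRT2 call was lost without 3 h replicate 2 or 12 h replicate 1, at −0.46 both times, and with counts derived from TPM, at −0.48. The 3 h and 12 h groups also differ in the time of day (ZT7 and ZT16), which cannot be told apart from the time in the cold.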

How the results depend on the processing

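VIN3 was called higher at 12 h, against 22 °C and against 3 h, in every alternative that tested it (it has too few reads at 22 °C for the filter of at least 10 counts in every library). VIN3 entered the main fit only through its 12 h reads. The alternatives use those same reads, so these repeated calls are not separate support. The counts for the 10 genes turned mainly on the fold minimum: without it 1, 7, and 5 genes were called at 3 h, at 12 h, and for 12 h against 3 h, the same numbers as with an adjusted p under 0.05 and groups that do not overlap (added after the data were seen), and with a minimum of 1 it was 0, 1, and 1. For 12 h against 3 h, upper quartile scaling and the filter of at least 10 counts each left 1, and leaving out a library gave 1 to 3. Over all genes, dropping the fold minimum gave 3429, 10120, and 8121 calls, and a minimum of 1 gave 965, 3492, and 2348. Under upper quartile scaling, 2559 genes were higher at 12 h and 4739 lower (35.1% higher, against 46.7%), 58.6% higher at 3 h (against 67.0%), and 34.8% for 12 h against 3 h (against 42.6%). For the pathway lists, no fold minimum gave 4, 32, and 20 calls, a minimum of 1 gave 2 at 12 h and 2 for 12 h against 3 h, upper quartile scaling gave 1 at 3 h (SRT2) and 4 higher and 6 lower at 12 h (against 8 and 4), and without a library the count was 0 to 1 at 3 h and, for 12 h against 3 h, 3 to 6. VRN5 was called lower at 12 h under upper quartile scaling (−0.63), with at least 10 counts (−0.50), and with TPM-derived counts (−0.51). In the fits, signs flipped only for values near 0. HDA19 did so at 3 h under upper quartile scaling (−0.038) and without a library (−0.028 to 0.055), and HOS15 at 3 h under upper quartile scaling (−0.007). PKL did so at 12 h under DESeq2 (0.004), its size factors (0.003), or without a library (−0.035 to 0.005). For 12 h against 3 h, VRN2 and SWN did so without a library (−0.011 to 0.207 and −0.10 to 0.034). The sign of FLC at 12 h flipped under DESeq2 (0.007), its size factors (0.006), and the replicate block (0.003). The ratio of mean TPM also turned HDA19 at 3 h from 0.016 to −0.026. For 12 h against 3 h it turned HDA6 from 0.12 to −0.016 and VRN2 from 0.11 to −0.01. Relative to the median of all genes in TPM, these 3 values were 0.04, 0.17, and 0.18. FLC without a library lay between −0.203 and 0.065 at 3 h and between −0.18 and 0.10 at 12 h. Same-numbered libraries had residual correlations of −0.197 to 0.105, and differently numbered ones −0.135 to 0.13. The residuals were taken from means of only 3 libraries, so these values cannot show whether same-numbered libraries belong together. A replicate block fit called 0, 3, and 2 of the 10 genes, adding VRN5 at 12 h (−0.51), and 2045, 6665, and 5120 of all genes, and VAL3 and LDL2 missed the threshold at 12 h with it. Transcript usage was called for 0 of the 10 genes in all alternatives, but only 6 of them could be tested in the main fit. Of these, VIN3 could not have been called against 22 °C, where it had no transcript shares. Depth limits VIN3 at 3 h most, where the result rests on 5 reads.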
